A study of Mus musculus with 9 samples.

Results

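The genes described here encode the constitutive proteasome, and they were followed in basal keratinocytes of mouse footpad skin under a high-fat diet and in old age. They were taken by name: every gene of the deposited table whose symbol begins with Psma, Psmb, Psmc, Psmd, Psme, Psmf or Psmg followed by a digit, leaving out the immunoproteasome subunits Psmb8, Psmb9 and Psmb10 and pseudogenes. This gave 47 genes of 22399, and 45 of them had a mean over the libraries of at least 1 FPKM (a fragment count scaled to gene length and to library size), the level set for testing. The remaining genes were Psma8, the alpha subunit of the testis proteasome, which was listed at 0 in every library, and Psmb11, the catalytic subunit of the thymus proteasome, which was listed at 0.0340 FPKM in aged replicate 3, 0.0201 in control replicate 3 and 0 elsewhere. By their known place in the complex the 47 genes fell into 8 core alpha, 8 core beta, 6 ATPase, 11 non-ATPase, 5 activator, 1 inhibitor and 7 assembly chaperone genes. One gene that matches the name rule, Psmc3ip, encodes a factor of meiotic recombination that binds an ATPase subunit. It is not a part of the complex and is kept apart as an interacting protein.

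The proteasome is the chamber in which cells cut up proteins that carry ubiquitin chains. Its barrel has outer rings of alpha subunits, which gate the entrance, and inner rings of beta subunits, a few of which do the cutting. A cap set on the barrel recognises the ubiquitin chain, removes it and, with a ring of ATPases, unfolds the protein and feeds it in, while activators can take the place of the cap and open the gate without ubiquitin. In most tissues the genes for the barrel and the cap are expressed together, under transcription factors of the Nfe2 family. In epidermis the basal layer holds the dividing cells, which need the complex to remove cell cycle regulators in time.

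RNA was sequenced from interfollicular basal cells of plantar skin, sorted as CD49f-positive and CD34-negative, from wild-type C57BL/6 mice in 3 groups of 3 libraries. HFD mice were 5 months old and were fed a high-fat diet. Aged mice were 24 months old, with no diet named in the labels. Control mice were 5 months old and were fed a normal diet. Whether the libraries of a group came from separate animals is not given, so every p-value measures the spread between these libraries, which may be technical. Fold changes are on the log2(FPKM + 1) scale, given ± SE, which understates the change of low genes. A gene was called where its p from a limma fit to all 10367 genes with enough signal, adjusted by Benjamini and Hochberg's method, was under 0.05.

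Estimated depth was 23600000 to 35800000 reads per library. The tested proteasome genes had between 145 reads, for Psme2b, and 11052 reads, for Psmd2, in a library, and Spearman's rho between libraries over genes was 0.97 to 0.99. The 9 basal keratinocyte markers listed were all expressed, Krt14 highest at a mean of 12461 FPKM, and their summed level was 27067 to 31752 FPKM in HFD, 23835 to 24940 in aged and 23932 to 30702 in control. Of these 9, only Itga6 and Dst were called. Both were higher in HFD than in control (0.29 and 0.53, adjusted p = 0.0168 and 0.00245). Dst was also higher in aged than in control (0.36, adjusted p = 0.0232), and Itga6 lower in aged than in HFD (-0.40, adjusted p = 0.00575). The 10 spinous and granular markers were also all expressed, with summed levels of 6154 to 8605 FPKM in HFD, 7953 to 11051 in aged and 6492 to 8264 in control. All 7 melanocyte, 6 endothelial and 6 Merkel cell markers were below 1 FPKM in every library, as were 5 of 6 T cell, 6 of 7 fibroblast and 5 of 8 Langerhans and myeloid markers. Krt20, which defines Merkel cells, and Lum and Pdgfrb of fibroblasts were listed at 0 throughout. In bulk RNA, fewer cells of a type and less RNA per cell cannot be told apart.

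Proteasome genes were among the more strongly expressed genes of these cells. Their mean level ran from 6.36 FPKM for Psmd9 to 127 FPKM for Psmc5, and the median member stood at percentile 90.8 of all tested genes, with the lowest at 37.5 and the highest at 97.2. FPKM divides by the length of the merged exons, so a gene with many annotated exons is set lower than its main transcript would be. The median SD between libraries of a group was 0.092 on the log2 scale for members and 0.108 for the 6148 other genes in the same range of levels.

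**Figure D1:**
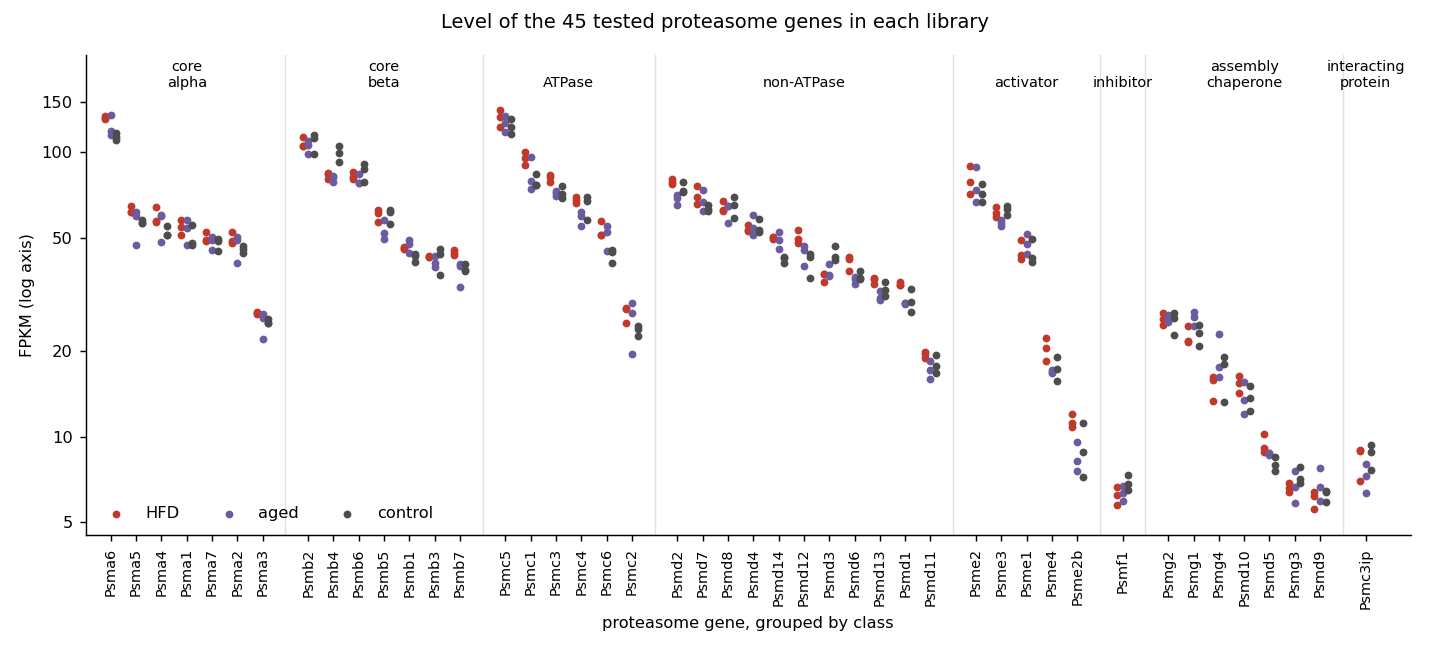
FPKM of each of the 45 tested genes on a log axis, in classes and ordered by mean level within each class, with each point 1 library (HFD, aged and control from left to right within a gene, 3 points each). Psma6, Psmb2 and Psmc5 lie above 90 FPKM in every library, whereas Psmf1 and most assembly chaperones lie far lower, and the points of the 3 groups lie close together for nearly every gene.

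Within the outer rings of the barrel, Psma6 had by far the highest level. It stood at 131, 132 and 134 FPKM in HFD, 135, 119 and 115 FPKM in aged and 117, 110 and 113 FPKM in control. All HFD values lay above all control values, but the difference of 0.22 ± 0.07 missed the threshold (adjusted p = 0.0559). Psma6 was called with a replicate block (0.0471), with aged libraries kept out of the fit (0.0315) and without aged replicate 1 (0.0355) or 3 (0.0350). Psma3 was the lowest, at 27.4, 27.2 and 27.0 FPKM in HFD, 26.2, 27.0 and 22 FPKM in aged and 26.0, 25.0 and 25.1 FPKM in control. The HFD values of Psma3 also lay above those of control, by 0.10 ± 0.08 (adjusted p = 0.422). The other 5 expressed alpha genes had means between 47.3 FPKM for Psma2 and 58.5 FPKM for Psma5.

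The inner rings showed a wider mix of levels. Psmb2, a structural beta subunit, was highest, at 113, 105 and 105 FPKM in HFD, 109, 106 and 98.2 FPKM in aged and 115, 98.1 and 112 FPKM in control, and the groups overlapped. Psmb5, which carries the chymotrypsin-like activity and is the target of proteasome inhibitors, had 61.1, 56.8 and 62.4 FPKM in HFD, 57.9, 51.9 and 49.3 FPKM in aged and 55.8, 61.8 and 62.8 FPKM in control. Its HFD and control values overlapped, with a difference of 0.00 ± 0.08 and a 95% interval of -0.17 to 0.17, and its aged values overlapped both, with the lowest mean (-0.18 ± 0.08 against control, adjusted p = 0.182). Psmb6, which carries the caspase-like activity, had 80.1, 85.2 and 82.0 FPKM in HFD, 83.5, 77.6 and 77.6 FPKM in aged and 87.1, 78.5 and 90.7 FPKM in control, and all groups overlapped. Psmb7, which carries the trypsin-like activity, was the lowest of the class. It had 45.4, 43.5 and 44.2 FPKM in HFD, 39.9, 40.3 and 33.5 FPKM in aged and 40.4, 38.6 and 38.3 FPKM in control. Its HFD values lay above all others, but the difference of 0.18 ± 0.08 from control was not called (adjusted p = 0.132). For none of the 3 catalytic subunits did limma call a difference in any of the 3 comparisons, although Psmb5 and Psmb7 each had an unadjusted p under 0.05 in 2 of them. Stretches of 50 bases that Psmb5 shares with transcripts of other genes made up 54.07% of it, mostly with Gm3375, and for Psma5 the share was 49.96%, so their levels are uncertain. Psmb7 overlaps Nek6 on the opposite strand over 11.8% of its exons. Its level is less certain too, since the strand setting of the counting is not given.

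In the cap, the ATPase Psmc5 was the highest member of all, at 140, 133 and 122 FPKM in HFD, 127, 134 and 118 FPKM in aged and 122, 116 and 131 FPKM in control. The ATPase Psmc2 was 28.0, 28.3 and 25.0 FPKM in HFD, 29.5, 27.2 and 19.6 FPKM in aged and 24.4, 22.6 and 23.9 FPKM in control. For Psmc5 the groups overlapped, and for Psmc2 the HFD values lay above those of control (0.19 ± 0.12, adjusted p = 0.305). Among the non-ATPase subunits Psmd2, a large scaffold of the base of the cap, was highest, at 77, 80.7 and 78.5 FPKM in HFD, 69.1, 70.4 and 65.4 FPKM in aged and 72.9, 72.3 and 78.7 FPKM in control. Psmd11, a lid subunit whose level has been tied to proteasome activity in human embryonic stem cells, was lowest, at 19.8, 19.5 and 18.9 FPKM in HFD, 17.1, 18.4 and 16 FPKM in aged and 16.7, 17.7 and 19.3 FPKM in control. The aged values of Psmd2 and of Psmd11 lay below their HFD values, by 0.20 ± 0.06 (adjusted p = 0.0813) and 0.17 ± 0.08 (adjusted p = 0.201), and neither difference was called. For Psmd11 the aged and control values overlapped.

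Summed over the subunits expressed, the 17 cap genes had 1022, 993 and 956 FPKM in HFD, 928, 952 and 859 FPKM in aged and 900, 866 and 955 FPKM in control. The 14 barrel genes had 919, 894 and 893 FPKM in HFD, 892, 875 and 788 FPKM in aged and 893, 829 and 882 FPKM in control. The ratio of cap to barrel was 1.112, 1.111 and 1.070 in HFD, 1.041, 1.089 and 1.090 in aged and 1.008, 1.044 and 1.082 in control. The ranges of all 3 groups overlapped for this ratio. All tested members together took 0.698% to 0.734% of the FPKM of a library in HFD, 0.651% to 0.695% in aged and 0.676% to 0.711% in control.

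The comparison of HFD with control asked what the diet does at equal age. The calls went both ways. Psmc6, Psmd12 and Psmd14, all of the cap, rose, and Psmb4 of the barrel and Psmd3 of the cap fell, each by less than 0.3 on the log2 scale. These 5 genes are 11.1% of the 45 tested, whereas 17.0% of all genes tested were called. In the direction of a rise the 3 members stand beside 8.26% of all genes, and in the direction of a fall the 2 members stand beside 8.76%. At an unadjusted p under 0.05, 14 members differed, 12 of them higher in HFD. The share of all genes at this unadjusted p was not counted. It is larger than the 17.0% that were called, so no excess of members can be read from these 14.

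Psmb4 encodes a structural subunit of the inner ring. It stood at 84.0, 84.4 and 80.7 FPKM in HFD, 82.0, 82.1 and 78.8 FPKM in aged and 99.3, 92.3 and 105 FPKM in control. Every HFD and every aged library lay below every control library. Psmb4 fell in HFD, by 0.25 ± 0.07 (adjusted p = 0.0284), and in aged, by 0.28 ± 0.07 (adjusted p = 0.0281), and both comparisons use the same control libraries. Psmb4 lies on chr3:94884093-94886961 (GRCm38, minus strand), shares no stretch of 50 bases with another gene and overlaps none on the opposite strand. Its HFD call was lost when control replicate 1 or 3 or any of the HFD libraries was left out (adjusted p up to 0.0894). A replicate block together with a correction for GC content also removed the HFD call (0.0565). The aged call was lost when control replicate 1 or 3 or aged replicate 1 or 2 was left out (adjusted p up to 0.0909). Keeping HFD libraries out of the fit also removed the aged call (0.0687).

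Psmd14, on chr2:61711694-61800376 (plus strand), encodes the deubiquitinase of the lid, which takes the ubiquitin chain off before the protein is unfolded. It stood at 50.3, 50.1 and 49.4 FPKM in HFD, 48.9, 52.5 and 45.5 FPKM in aged and 42.7, 40.8 and 42.6 FPKM in control. All HFD and all aged libraries lay above all control libraries. Psmd14 rose in HFD, by 0.24 ± 0.07 (adjusted p = 0.0318), but had 0.13 and no call after a correction for GC content (0.173). Its difference in aged was 0.21 ± 0.07 (adjusted p = 0.0761), which was called without aged replicate 3 (adjusted p = 0.0305).

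Psmc6, on chr14:45329788-45349705 (plus strand), encodes an ATPase of the unfolding ring. It stood at 57.4, 51.1 and 51.2 FPKM in HFD, 55.1, 52.2 and 45 FPKM in aged and 44.4, 45.1 and 40.8 FPKM in control. HFD lay above control in every library, and aged replicate 3 lay within the control range. Psmc6 rose in HFD, by 0.29 ± 0.09 (adjusted p = 0.0430), but had 0.11 and no call after the GC correction (0.364). It had 0.22 ± 0.09 in aged (adjusted p = 0.140, and 0.0365 without aged replicate 3).

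Psmd12 and Psmd3 encode lid subunits built on the same kind of scaffold domain, and they differed in opposite directions. Psmd12, on chr11:107479484-107504362 (plus strand), stood at 53.4, 47.8 and 49.5 FPKM in HFD, 45.3, 46.8 and 39.8 FPKM in aged and 42.9, 36.0 and 44.0 FPKM in control, and rose in HFD by 0.29 ± 0.09 (adjusted p = 0.0498). Psmd3, on chr11:98682554-98695979 (plus strand), stood at 35.0, 37.3 and 37.2 FPKM in HFD, 36.7, 37.1 and 40.5 FPKM in aged and 41.7, 42.8 and 46.6 FPKM in control, and fell in HFD by 0.25 ± 0.07 (adjusted p = 0.0329). After the GC correction neither was called, with 0.25 for Psmd12 (adjusted p = 0.0791) and -0.16 for Psmd3 (0.106). For both genes every HFD library lay on 1 side of every control library. The aged libraries of Psmd12 overlapped those of control, whereas those of Psmd3 lay below them (-0.19 ± 0.07, adjusted p = 0.115).

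**Figure D2:**
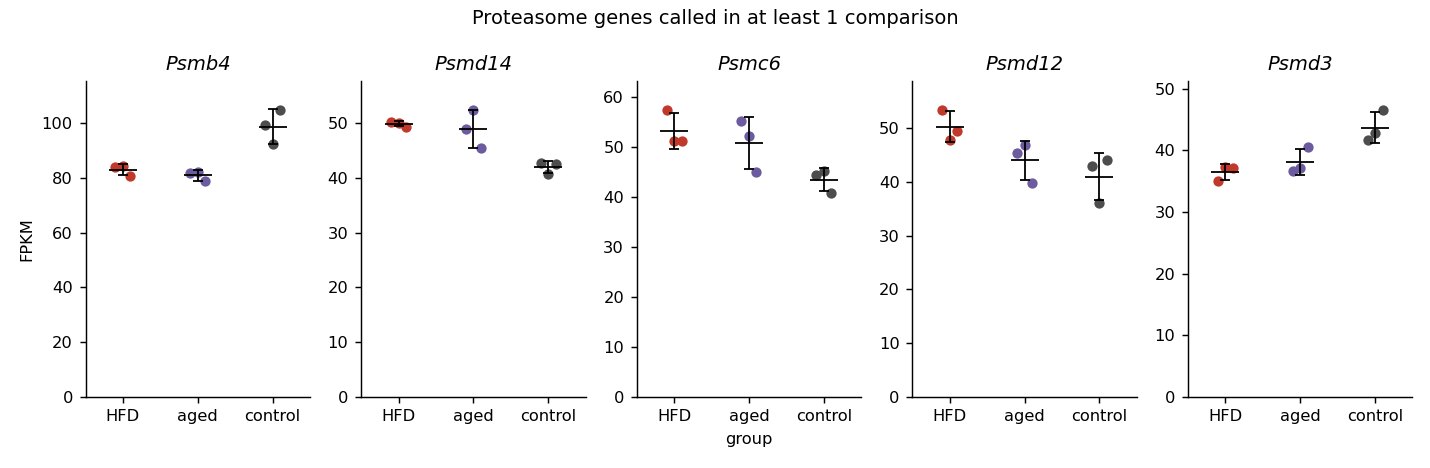
FPKM of the 5 members called in at least 1 comparison, with each point 1 library, the bar the mean and the whiskers the SD of 3 libraries, groups ordered HFD, aged and control, and each axis starting at 0. Psmb4 and Psmd3 are lower in HFD than in control and Psmd14, Psmc6 and Psmd12 higher, by differences that are small beside the level itself.

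When single libraries were left out, the differences in HFD stayed at 0.23 to 0.31 for Psmc6, 0.20 to 0.35 for Psmd12 and 0.22 to 0.25 for Psmd14, but their calls depended on all 6 HFD and control libraries. The calls of Psmc6, Psmd12 and Psmd14 each ended without any 1 of the HFD or control libraries, with adjusted p up to 0.147, 0.174 and 0.103, and those of Psmc6 and Psmd12 also without aged replicate 2 (0.0555 and 0.0572), that of Psmd12 also without aged replicate 1 (0.0590). All of them were lost with quantile normalization and with scaling to total FPKM, those of Psmc6 and Psmd12 also with no filter on low values (0.0739 and 0.0900), that of Psmd12 with a pseudocount of 0.1 (0.0502), and the fall of Psmd3 on leaving out control replicate 2 or 3 or any of the HFD libraries (adjusted p up to 0.109).

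Promoters of called members are printed because the members were called in opposite directions, and the windows let the sequences be set side by side. Psmd3 had no entry among the promoters used, so Psmb4 is the only member that fell whose window is shown. Each runs from 250 bases before to 50 bases after the annotated start (RefSeq, GRCm38.p6, read 5′ to 3′ on the gene's strand). Capitals mark matches, on either strand, to TGACNNNGC, the core of the antioxidant response element that Nfe2-family factors bind, and to CCAAT, the box bound by NF-Y, where the 2 motifs share no letters in these windows. Psmb4 (chr3:94886909-94887208, minus strand, no match), Psmd14 (chr2:61711444-61711743, plus strand, 3 CCAAT matches, 2 of them overlapping just after the start), Psmc6 (chr14:45329574-45329873, plus strand, 1 match to TGACNNNGC beginning 227 bases before the start) and Psmd12 (chr11:107479278-107479577, plus strand, 1 such match beginning 247 bases before the start) read as follows.
Psmb4: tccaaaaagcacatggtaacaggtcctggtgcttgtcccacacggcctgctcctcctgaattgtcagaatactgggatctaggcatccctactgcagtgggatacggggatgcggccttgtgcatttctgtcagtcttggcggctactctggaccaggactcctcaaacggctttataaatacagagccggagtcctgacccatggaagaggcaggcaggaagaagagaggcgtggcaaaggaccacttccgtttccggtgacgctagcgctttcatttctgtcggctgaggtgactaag
Psmd14: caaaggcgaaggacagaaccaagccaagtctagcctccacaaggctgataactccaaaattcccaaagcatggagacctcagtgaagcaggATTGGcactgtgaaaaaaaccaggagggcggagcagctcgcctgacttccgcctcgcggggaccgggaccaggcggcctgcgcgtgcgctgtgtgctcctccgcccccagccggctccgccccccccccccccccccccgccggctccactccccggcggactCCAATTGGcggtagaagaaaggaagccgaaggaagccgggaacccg
Psmc6: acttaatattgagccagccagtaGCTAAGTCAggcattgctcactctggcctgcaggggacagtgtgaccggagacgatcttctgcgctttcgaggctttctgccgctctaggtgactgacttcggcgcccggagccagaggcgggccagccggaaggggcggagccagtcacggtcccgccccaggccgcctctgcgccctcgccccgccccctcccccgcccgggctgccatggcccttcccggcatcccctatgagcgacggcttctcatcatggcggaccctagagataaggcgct
Psmd12: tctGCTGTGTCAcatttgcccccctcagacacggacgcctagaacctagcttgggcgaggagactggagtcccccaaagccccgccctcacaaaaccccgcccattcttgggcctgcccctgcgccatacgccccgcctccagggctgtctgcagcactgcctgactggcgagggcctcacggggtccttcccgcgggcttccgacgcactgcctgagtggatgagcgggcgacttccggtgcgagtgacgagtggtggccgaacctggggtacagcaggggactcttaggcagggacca
Of the tested members 38 had an entry in the promoter table, with 41 windows. TGACNNNGC was in 6 of these 41 (14.6%), for Psmb5, Psmb6, Psmc6, Psmd12, Psmd9 and Psme4, and in 12.4% of all 32851 windows. CCAAT was in 13 of 41 (31.7%) and in 37.4% of all windows. The median GC content was 59.0% in the member windows and 52.7% in all windows. A match describes these letters only and shows no binding.

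Set side by side, the classes leaned to different degrees in HFD against control. All 7 core alpha genes had a fold change above 0, with a median of 0.12 and a range of 0.07 to 0.22, and none was called. All 6 ATPase genes were above 0 as well, with a median of 0.18, and 1 was called. Non-ATPase genes had 8 of 11 above 0 (median 0.11, with 2 called higher and 1 lower) and activators 4 of 5 (median 0.15, none called). Core beta genes had 4 above and 3 below 0, with a median of 0.00 and 1 called lower. Assembly chaperones had 3 above and 4 below 0 (median -0.02, none called). Over the 45 members the median was 0.10, and 71.1% of them were above 0, beside a median of 0.01 and 51.5% over all genes tested. Differences between classes were not tested, since the genes of a class are measured in the same libraries.

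**Figure D3:**
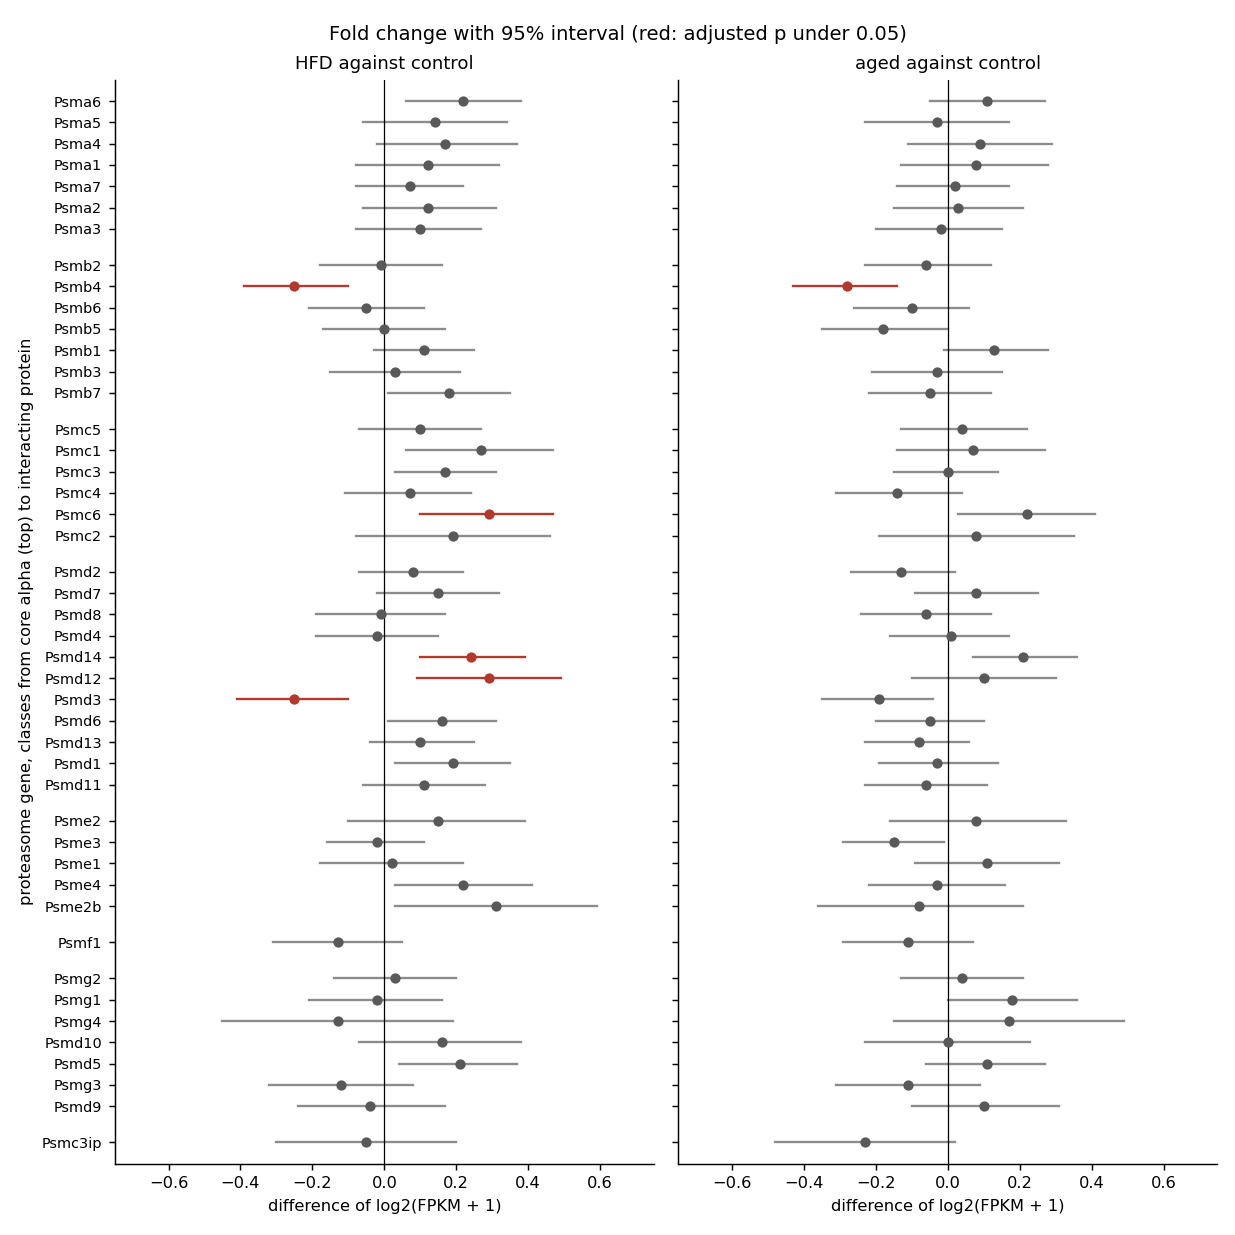
Difference of log2(FPKM + 1) with its 95% interval for each tested member, in classes from core alpha at the top to the interacting protein at the bottom, for HFD against control (left) and aged against control (right), with members called at an adjusted p under 0.05 in red. On the left the core alpha and ATPase genes all lie right of 0, and on the right the members lie on both sides of 0 with Psmb4 alone in red; both panels use the same control libraries.

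Among the activators, Psme1 and Psme2 form the ring that interferon induces. Psme1 had 48.9, 42.2 and 43.5 FPKM in HFD, 51.6, 47.7 and 43.7 FPKM in aged and 42.4, 41.0 and 49.3 FPKM in control. Psme2, the highest of the class, had 89.4, 78.3 and 71.3 FPKM in HFD, 73.4, 88.7 and 66.7 FPKM in aged and 77.1, 66.7 and 71.2 FPKM in control. For both the groups overlapped, and neither was called (lowest adjusted p = 0.379, for Psme2 in HFD). Psme3, which forms a nuclear activator ring, had 63.9, 59.3 and 61.1 FPKM in HFD, 54.8, 57.8 and 56.2 FPKM in aged and 64.4, 63.0 and 60.1 FPKM in control. Its aged libraries lay below all others, but the difference of -0.15 ± 0.06 from control was not called (adjusted p = 0.168). Psme4, a large single-chain activator found in nuclei, had 18.4, 20.5 and 22.2 FPKM in HFD, 16.8, 16.9 and 17.1 FPKM in aged and 19, 17.3 and 15.7 FPKM in control. Its HFD and control values overlapped (0.22 ± 0.09, adjusted p = 0.0949). Psme2b, a close copy of Psme2, was the lowest of the class, with 10.8, 12 and 11.2 FPKM in HFD, 9.55, 7.56 and 8.22 FPKM in aged and 11.2, 7.19 and 8.84 FPKM in control. Since 69.29% of the 50-base stretches of Psme2b occur in other transcripts, 68.65% in Psme2, reads of the pair may have been exchanged and neither level is secure. The inhibitor Psmf1, which can bind the barrel's ends, had 6.63, 6.23 and 5.75 FPKM in HFD, 5.93, 6.32 and 6.73 FPKM in aged and 7.31, 6.50 and 6.84 FPKM in control, with overlapping values and no call (lowest adjusted p = 0.286).

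The assembly chaperones, which join subunits and leave the finished complex, were expressed at lower levels than the subunits themselves, with a median of 14.2 FPKM over 7 genes, against 52.5 FPKM over the 31 barrel and cap subunits tested. Psmg2, a partner of Psmg1 in alpha ring assembly, was highest, at 27.1, 25.9 and 24.7 FPKM in HFD, 25.2, 25.9 and 26.8 FPKM in aged and 22.8, 26.1 and 27.2 FPKM in control. Psmd9, a chaperone of the cap's ATPases, was lowest, at 6.37, 5.59 and 6.21 FPKM in HFD, 5.95, 7.77 and 6.68 FPKM in aged and 6.37, 5.88 and 6.45 FPKM in control. The groups overlapped for both. Psmd9 overlaps Gm26745 on the opposite strand over 25.5% of its exons, and its level is uncertain because no source used here says if counting took account of strand. None of the 7 chaperones was called by limma in any comparison (lowest adjusted p = 0.0818, for Psmd5 in HFD), and at an unadjusted p under 0.05 stood Psmd5 in HFD against control and Psmg1 in aged against HFD. Psmg4 had the widest spread of all members, with an SD of 0.228 on the log2 scale. The meiotic factor Psmc3ip had 8.93, 9.01 and 6.98 FPKM in HFD, 7.25, 6.32 and 8.04 FPKM in aged and 7.61, 9.35 and 8.85 FPKM in control, with overlapping groups. It overlaps Mlx on the opposite strand over 21.2% of its exons.

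The comparison of aged with control addressed age, with the diet of the aged mice not given. Psmb4 alone was called, lower in aged. That is 2.22% of the 45 members, beside 7.76% of all genes tested. No member was called higher, beside 4.01% of all genes, and 1 was called lower, beside 3.74%. At an unadjusted p under 0.05, 6 members differed, 2 of them higher in aged. For all genes that share was not counted. It is larger than the 7.76% that were called, so no excess of members can be read from these 6. The median fold change was 0.00 over the members and -0.01 over all genes, with 22 members above and 23 below 0. Core alpha genes had a median of 0.03, core beta -0.06, ATPase 0.06, non-ATPase -0.05, activators -0.03 and assembly chaperones 0.10.

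In aged against HFD limma called no member in either direction (lowest adjusted p = 0.0813, for Psmd2), whereas 7.99% of all genes tested were called, 3.54% higher and 4.45% lower. At an unadjusted p under 0.05, 12 members differed, 1 of them higher in aged. For all genes that share was not counted. It is larger than the 7.99% that were called, so no excess of members can be read from these 12. Of the 45 members 35 were below 0, with a median of -0.09 beside 0.00 over all genes. Without aged replicate 3 the median of the members was -0.02 and 29 were below 0. In the F test for any difference among the groups 2 members passed, Psmb4 (adjusted p = 0.0225) and Psmd14 (0.0422), beside 20.4% of all genes tested.

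The intervals limit how large an undetected change could be. In HFD against control the 95% interval of 44 of the 45 members lay within ±0.5 on the log2 scale, Psme2b reaching 0.59. In aged against control all 45 lay within it, and in aged against HFD 43 did.

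Single libraries moved many members together. In aged replicate 3, 38 of 45 members were below their mean over all libraries and 16 had their lowest value there, with a median deviation of -0.10. In control replicate 2, 36 were below their mean and 14 had their lowest value. In HFD replicate 1, 41 were above their mean and 15 had their highest value. The median deviation over all genes was within 0.01 of 0 in every library. All 7 core alpha genes lay below their mean in aged replicate 3 (median -0.20) and in control replicate 2 (median -0.11), and all 7 above it in aged replicate 1 and HFD replicates 1 and 2. All 6 ATPase genes were below their mean in the same pair of low libraries (medians -0.16 and -0.13). The assembly chaperones did not share the low value of aged replicate 3, where 4 of 7 lay above their mean. Control replicate 2 was also the library with the lowest estimated depth, 23600000 reads, and HFD replicate 1 the one with the highest, 35800000 reads, whereas aged replicate 3 had 30100000 reads; the part of depth in these shifts was not tested.

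**Figure D4:**
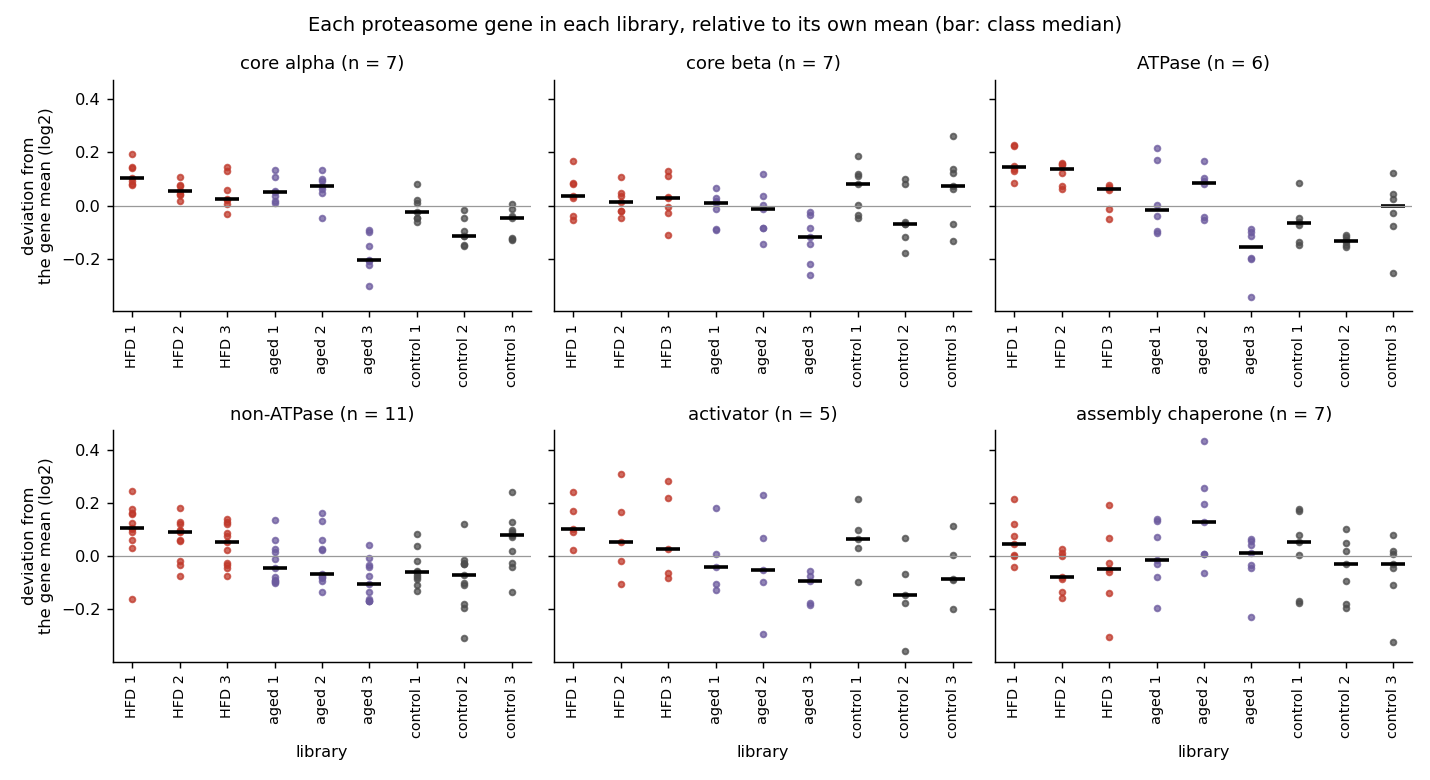
Deviation of each gene from its own mean over the 9 libraries, in log2 units, for 6 classes, with each point 1 gene, libraries ordered HFD, aged and control, and the black bar the class median. Aged replicate 3 and control replicate 2 have medians below 0 in the alpha, beta, ATPase, non-ATPase and activator panels, and the assembly chaperones show no such dip in aged replicate 3.

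Members differed in how closely they kept to a common profile, defined as the mean z-score of the 20 tested core alpha, core beta and ATPase genes over the 9 libraries. Pearson's r with that profile was 0.95 for Psma2, 0.94 for Psma7 and 0.93 for Psma3, which contribute to it themselves. Of genes outside it, Psmd12 had 0.89 and Psmd10, an assembly chaperone of the cap, 0.81. Psmb4 had -0.02 although it is part of the profile, Psmd4, a ubiquitin receptor of the cap, 0.06, and Psmd3 -0.57. Of 10240 other genes, those most like the profile were Ppia, a peptidyl-prolyl isomerase (0.972), Atp5o, a subunit of the mitochondrial ATP synthase (0.968), Bud31, a splicing factor (0.965), Mrpl21, a protein of mitochondrial ribosomes (0.964), and Supt16, a subunit of the histone chaperone FACT (0.962). Ppia had 292, 270 and 250 FPKM in HFD, 258, 252 and 180 FPKM in aged and 225, 204 and 225 FPKM in control, with its lowest value in aged replicate 3 as well. These correlations describe 9 libraries in which a few move many genes at a time.

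Fold changes of members in HFD against control followed the GC content of their transcripts. Spearman's rho was -0.59 over the 45 members and -0.46 over 10365 genes, where genes share their libraries and are not independent. Of the called members, Psmc6 had a GC content of 37.0%, Psmd14 of 43.2%, Psmd12 of 47.9%, Psmb4 of 52.2% and Psmd3 of 55.4%, so the 3 that rose were the 3 lowest in GC. After a correction that removed the trend of each library on GC content, rho over the members was 0.09. Psmb4 was then still called lower in HFD (-0.22, adjusted p = 0.0460) and in aged (-0.27, adjusted p = 0.0248). With a replicate block added to the correction, its HFD call was lost (0.0565) and its aged call kept (0.0322). The other 4 called members lost their calls after the correction, as given above for each. Psmc3, an ATPase of the same ring, was called higher in HFD after the correction (0.27, adjusted p = 0.0213), against 0.17 ± 0.06 before it (0.0818). All 6 ATPase genes remained above 0 with a median of 0.12, and the core alpha genes had 5 of 7 above 0 with a median of 0.09.

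**Figure D5:**
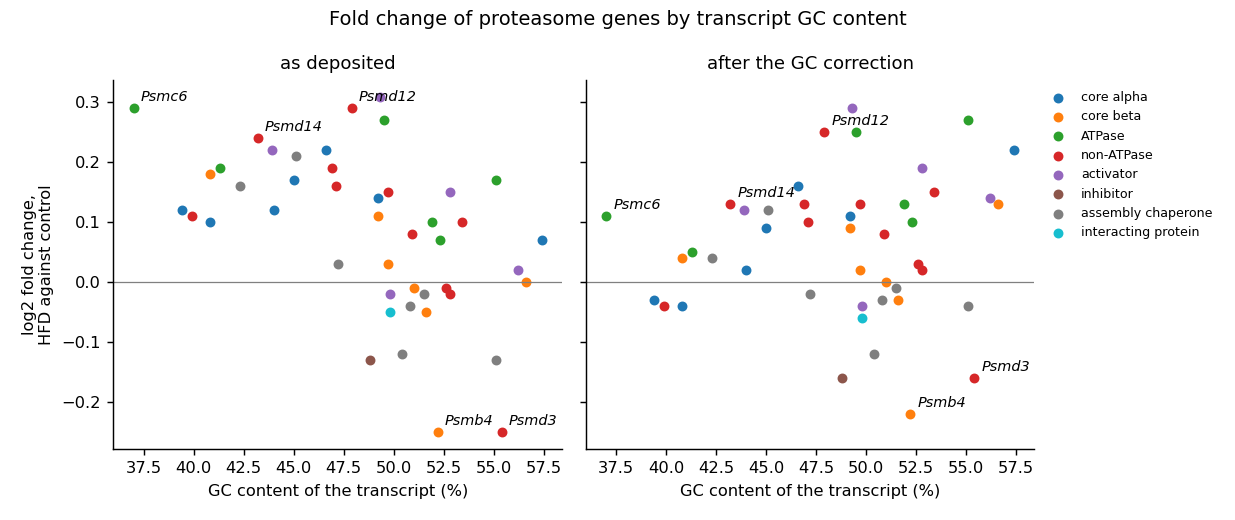
Log2 fold change of HFD against control for each tested member against the GC content of its transcript in percent, from the deposited values (left) and after the GC correction (right), coloured by class, with the 5 called members named. On the left the values descend with GC content, and on the right they do not, while Psmb4 stays at the lower edge.

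Markers of dividing cells moved with diet in the same libraries. Of 8 such markers 5 were higher in HFD than in control and none lower, and all 8 were lower in aged than in HFD, with Pcna also lower in aged than in control. Over all genes tested 8.26% were called higher in HFD than in control and 4.45% lower in aged than in HFD. Their summed level was 502 to 521 FPKM in HFD, 277 to 347 in aged and 338 to 406 in control. Mki67, the highest of them, averaged 155 FPKM in HFD, 88.4 FPKM in aged and 89.5 FPKM in control. The part of these markers in the proteasome values was not tested. Dcn, a fibroblast proteoglycan, averaged 2.03 FPKM in HFD, 3.78 FPKM in aged and 5.22 FPKM in control and was lower in HFD than in control (adjusted p = 0.00239), and its part was not tested either. The other 6 fibroblast markers listed were below 1 FPKM in every library, so Dcn alone does not describe the fibroblast list. Of 5 sweat gland markers 2 were expressed at the level set for testing, and Cftr was listed at 0. Summed levels of the 5 were 5.65 to 6.58 FPKM in HFD, 9.05 to 9.97 in aged and 4.99 to 7.45 in control. Krt77 was higher in aged than in control (0.94, adjusted p = 0.0480) and than in HFD (1.12, 0.0237). It averaged 3.04 FPKM in aged, 0.838 in HFD and 1.07 in control. Krt77 thus passed the level set for testing largely through the aged group, where it is high. Of 7 hair follicle and sebaceous markers 2 were tested, with summed levels of 24.5 to 43.2 FPKM in HFD, 89.1 to 124 in aged and 21.5 to 68.2 in control, and none was called in aged against control, while Krt79 was higher in aged than in HFD (1.54, adjusted p = 0.0237). Krt79, at a mean of 60.7 FPKM, made up most of these sums, and Lhx2, at 1.53 FPKM, was called in no comparison. Of the 10 spinous and granular markers, Krt1 was higher in aged than in control (0.61, adjusted p = 0.0198). Their part in the aged values was not tested.

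Genes that work with the proteasome gave a setting for these values. Of the immunoproteasome subunits, which replace the catalytic ones in cells exposed to interferon, all were expressed far below their constitutive counterparts. Psmb8, the counterpart of Psmb5, had 0.999, 1.35 and 1.09 FPKM in HFD, 1.51, 2.25 and 1.82 FPKM in aged and 0.719, 0.356 and 0.786 FPKM in control. Its aged values lay above all others. It rose in aged by 0.82 ± 0.15 against control (adjusted p = 0.00822), or by 1.49 with a pseudocount of 0.1 (0.0123). In HFD it had 0.41 ± 0.15 (adjusted p = 0.0714). Psmb8 averaged 1.86 FPKM in aged, 1.15 in HFD and 0.62 in control. Its mean over the libraries, 1.21 FPKM, thus passed the level set for testing largely through the aged group, where it is high. Psmb9, the counterpart of Psmb6, had 1.18, 1.33 and 0.719 FPKM in HFD, 0.742, 1.27 and 1.53 FPKM in aged and 1.13, 0.510 and 0.867 FPKM in control. Psmb10, the counterpart of Psmb7, had 4.62, 6.19 and 5.09 FPKM in HFD, 5.29, 5.44 and 5.01 FPKM in aged and 5.34, 5.40 and 6.86 FPKM in control. For both the groups overlapped and nothing was called (lowest adjusted p = 0.414).

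Of 10 further genes for parts and partners of the proteasome that bear other names, 1 was higher and 1 lower in HFD than in control, and none was called in aged against control or against HFD. Over all genes tested 8.26% were called higher and 8.76% lower in HFD than in control. In aged 7.76% were called against control and 7.99% against HFD. Akirin2, needed for the import of proteasomes into the nucleus, rose in HFD, at 32.0, 29.5 and 31.6 FPKM in HFD, 25.7, 29.2 and 26.7 FPKM in aged and 27.6, 25.7 and 24.0 FPKM in control (0.26 ± 0.08, adjusted p = 0.0386). Adrm1, a ubiquitin receptor of the cap, fell in HFD, at 15.4, 15.8 and 15.6 FPKM in HFD, 16.7, 15.8 and 17.2 FPKM in aged and 17.6, 19.6 and 20 FPKM in control (-0.27 ± 0.07, adjusted p = 0.0248). For both genes HFD and control did not overlap. Both calls were lost on leaving out control replicate 2 or 3 or any of the HFD libraries (adjusted p up to 0.117 for Akirin2 and 0.0827 for Adrm1) and after the GC correction (0.0737 and 0.0876), and that of Akirin2 also with no filter, quantile normalization or scaling to total FPKM (up to 0.0939). Pomp, the maturation factor of the barrel, had 27.6, 27.7 and 24.1 FPKM in HFD, 29.0, 29.8 and 22.6 FPKM in aged and 20.9, 21.6 and 22 FPKM in control. Its HFD and aged values lay above those of control, but neither difference was called (0.28 ± 0.10, adjusted p = 0.0723, and 0.31 ± 0.10, adjusted p = 0.0817). Ube3c, a ubiquitin ligase bound to the cap, had 14.2, 14.2 and 14.4 FPKM in HFD, 13.9, 12.3 and 11.3 FPKM in aged and 11.9, 12.2 and 11.8 FPKM in control (0.23 ± 0.08 in HFD, adjusted p = 0.0589).

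Of 14 regulators of proteasome genes, none was higher and 2 lower in HFD than in control, and 1 was higher and 2 lower in aged than in control. Over all genes tested 8.26% were called higher and 8.76% lower in HFD, and 4.01% and 3.74% in aged. Nfe2l1, the factor that raises proteasome genes when the complex is short, had 43.9, 48.0 and 46.3 FPKM in HFD, 43.4, 43.6 and 50.2 FPKM in aged and 40.5, 44.7 and 45.1 FPKM in control, with overlapping groups (lowest adjusted p = 0.482). Mafg, a small Maf protein that pairs with Nfe2-family factors, had 10.1, 11.4 and 11.6 FPKM in HFD, 11.8, 11.7 and 12.3 FPKM in aged and 16.7, 20.3 and 17.0 FPKM in control. It fell in HFD by 0.66 ± 0.09 (adjusted p = 0.00147) and in aged by 0.55 ± 0.09 (adjusted p = 0.00442), with every control value above every other. Syvn1, a ubiquitin ligase of the endoplasmic reticulum that acts on Nfe2l1, had 8.87, 10.2 and 9.53 FPKM in HFD, 9.23, 9.47 and 10.5 FPKM in aged and 12.2, 13 and 12.1 FPKM in control. It fell in HFD by 0.35 ± 0.08 (adjusted p = 0.0126) and in aged by 0.33 ± 0.08 (adjusted p = 0.0290). Leaving out control replicate 2 or HFD replicate 1, or correcting for GC, removed its HFD call (adjusted p of 0.0532, 0.0513 and 0.0520), and leaving out any control library or aged replicate 1 or 2 removed its aged call (0.0519 to 0.1). Maff, a further small Maf protein, had 3.02, 3.53 and 3.43 FPKM in HFD, 4.57, 5.00 and 5.42 FPKM in aged and 2.29, 3.73 and 3.85 FPKM in control, all aged values above all others. It rose in aged by 0.50 ± 0.14 (adjusted p = 0.0489), a call that was lost on leaving out any 1 of the 9 libraries (adjusted p up to 0.114). Mafk, another small Maf protein, had 8.06, 8.31 and 9.02 FPKM in HFD and 10.6, 9.08 and 10.5 FPKM in aged. In control it had 9.7, 10.1 and 9.72 FPKM. Its HFD values lay below those of control (-0.20 ± 0.08, adjusted p = 0.106), while aged overlapped control (0.03 ± 0.08, adjusted p = 0.857). Nfe2l2, the factor of the oxidative stress response, had 31.7, 31.3 and 26.9 FPKM in HFD, 32.6, 33.1 and 29.7 FPKM in aged and 29.4, 21.3 and 26.8 FPKM in control. HFD overlapped control and aged lay above it, with 0.22 ± 0.11 in HFD (adjusted p = 0.189) and 0.30 ± 0.11 in aged (adjusted p = 0.114), neither called.

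Among genes for the activation and delivery of ubiquitin, the values of an activating enzyme and of a shuttle are given. Uba1, the main enzyme that activates ubiquitin, had 81.6, 84.9 and 89.7 FPKM in HFD, 68.8, 73.4 and 72.4 FPKM in aged and 79.1, 76.7 and 87.5 FPKM in control. Its aged values lay below all others (-0.25 ± 0.07 against HFD, adjusted p = 0.0539). Ubqln4, a shuttle for ubiquitinated proteins, had 28.3, 30.4 and 28.7 FPKM in HFD, 26.0, 30.8 and 28.6 FPKM in aged and 31.6, 37.3 and 35.8 FPKM in control. Its control values lay above all others, with differences of -0.25 ± 0.08 in HFD (adjusted p = 0.0587) and -0.29 ± 0.08 in aged (adjusted p = 0.0589).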

How the data were processed

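The authors deposited a table of FPKM per gene, 1 column per library. The submitters' processing notes name STAR 2.6.0c and HTSeq 0.11.2 among other tools, without roles; gene lengths and strand setting are not given in the sources used here. The test was limma 3.58.1 (R 4.3.3) on log2(FPKM + 1): a mean per group, eBayes with a trend, two-sided, 6 residual and 5.5 prior degrees of freedom, p adjusted over all genes averaging 1 FPKM or more. Depth came from the FPKM worth of a single read (97.5% to 98.2% of values up to 30 reads were whole within 0.02). GC content, shared 50-base stretches and overlaps came from GENCODE M21 (GRCm38). The GC correction subtracted a loess curve (span 0.5, degree 1) per library. Alternatives were a pseudocount of 0.1, no filter, a minimum of 5 FPKM, quantile normalization, total FPKM scaling, a replicate block, the GC correction, fits restricted to the pair of groups, and leave-one-out. Called members, catalytic subunits, Psmd11, activators, Psmf1, the highest and lowest member of each class and up to 4 pathway genes per list with the smallest F test p are given in full. Nfe2l1 and Nfe2l2 are given as well. Members and lists were chosen with earlier results of these data known. The fit was tested on simulated data. Single-cell data were not used here. Some results of the ubiquitin list are not reported here.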

Additional observations from a re-analysis of the deposited data

How the results depend on the processing

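Fold changes of members called in the reported fit or under an alternative, and of pathway genes called in the reported fit, kept their direction under each alternative that gave a value, but often not their significance. Of the called members Psmb4 kept its HFD call in 12 and its aged call in 13 of 18 alternatives, Psmd3 in 11, Psmd14 in 8, Psmc6 in 6 and Psmd12 in 4. Of the pathway genes, Psmb8 (17 of 17 alternatives) and Mafg (18 of 18 in each comparison) were called throughout. The minimum of 5 FPKM left Psmb8 out of the test. Members called higher in HFD than in control numbered 3, against 1 without a filter, 0 with quantile normalization, 0 with scaling to total FPKM, 1 after the GC correction, 1 with the replicate block and the GC correction, 5 with only the 6 libraries compared, and 0 to 5 when single libraries were left out. Over all genes 856 of 10367 were called higher, against 598 of 15708 without a filter and 830 with quantile normalization. Scaling to total FPKM gave 598, the GC correction 606, the replicate block with it 671 and only the 6 libraries 949. Leaving out single libraries gave 385 to 1039. Members called lower numbered 2, against 1 after the GC correction, 0 with the replicate block and the GC correction, and 0 to 2 without single libraries. Over all genes 908 were called lower, against 555 after the GC correction, 598 with the block added and 364 to 1072 without single libraries. In aged against control the 1 member called lower became 0 with only the 6 libraries and was 0 to 1 without single libraries, and the count higher was 0 to 2, the 2 arising without aged replicate 3. Over all genes 388 were called lower, against 195 with only the 6 libraries and 114 to 662 without single libraries. Those called higher were 416, against 190 to 592 without single libraries. In aged against HFD 1 member was lower after the GC correction, Psmd2, whose adjusted p rounds to 0.05, the threshold itself. With only the 6 libraries 1 member was lower (Psme2b), and without single libraries 0 to 1. Over all genes 461 were lower, against 509 after the GC correction, 371 with only the 6 libraries and 200 to 432 without single libraries. The F test gave 1 to 4 members without single libraries.

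Deviations of libraries of equal replicate number were weakly related at most (r from -0.05 to 0.27 over the 3 comparisons), so the numbers were not taken to pair samples. With the replicate block the F test called 4 members in place of 2, and the counts in HFD were 4 higher, Psma6 being the gene added, and 2 lower. Over all genes that block gave 978 higher and 1083 lower in HFD, against 856 and 908 in the reported fit. No alternative moved the median of all genes by over 0.1. Depth is estimated, and for most members the spread between libraries sets the error. With 3 libraries a group, differences of about the size called here pass or fail with 1 library.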
